A study of Mus musculus with 2 samples.

Results

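The immunity-related GTPases, or IRG proteins, are a family of interferon-induced GTP-binding proteins of the mouse. The 7 genes described here, Irgm1, Irgm2, Igtp, Iigp1, Ifi47, Tgtp1 and Tgtp2, were taken by symbol from the 23238 symbols of the deposited count files, and each occurred in both files. The measurements came from 2 libraries of bone marrow-derived dendritic cells, 1 treated with UNE-C1 and 1 control. Both were grown from the marrow of female C57BL/6 mice aged 7 weeks in medium with 20 ng/ml GM-CSF, renewed at day 3, and were collected as immature cells at day 6. The UNE-C1 culture received 100 nM UNE-C1 for 24 h, and what was added to the control culture in its place is not in the labels. UNE-C1 is a part of the enzyme cysteinyl-tRNA synthetase that is known to bind the innate receptors TLR2 and TLR6. How many mice gave the marrow, and whether it was pooled, is not stated in the labels.

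IRG proteins are known for cell-autonomous defence against pathogens that live inside vacuoles, such as Toxoplasma gondii and Chlamydia trachomatis. Members named GKS for the letters of their nucleotide-binding loop, here Iigp1 (also called Irga6), Ifi47 (Irgd) and the copies Tgtp1 and Tgtp2 (Irgb6), gather on the vacuole membrane, which is then disrupted. Members named GMS, here Irgm1, Irgm2 and Igtp (Irgm3), sit on the cell's own membranes and hold the GKS proteins in the inactive, GDP-bound state until they are needed. Transcription of the family is known to be driven by interferons, through factors that bind GAS and ISRE elements.

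The UNE-C1 library held 15975821 reads and the control library 14857198. With 1 library in each group, every difference below lies between 2 libraries and has no replicate check. No test was made, and all intervals cover counting error only. Levels are given as CPM, read counts scaled to library size, after TMM scaling. The libraries were made with a kit that reads messenger RNA near its 3' end, so that reads are not divided by transcript length and CPM stands for transcripts rather than bases. Fold changes on the log2 scale set CPM + 1 of the UNE-C1 library over CPM + 1 of the control library, and a CPM ratio is the plain ratio with its exact 95% interval. The median of all 10469 compared genes, those that reached 50 reads in either library, was -0.00 on the log2 scale. With total counts in place of TMM every plain log2 ratio moves by -0.34. Actb, a reference gene, was at 21450 CPM with UNE-C1 and at 17775 CPM in the control.

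Sequence just before the start sites is shown because the same short pair of elements recurs in it. RefSeq windows of GRCm38.p6, 300 bases each and running from 250 bases before to 50 bases after the start, were found for 6 of the 7 members. They were searched on both strands for GAS (TTCNNNGAA, in which N is any base), for the core of the ISRE (GAAA, any 2 bases, GAAA) and for a kappaB form (GGGA, any 2 bases, TTCC). The stretches below hold the matches, in capitals, with 12 bases on each side. They are Igtp (chr11:58199499-58199543, plus strand), Irgm2 (chr11:58214890-58214934, plus strand), Tgtp1 (chr11:48992302-48992346, minus strand), Tgtp2 (chr11:49064261-49064305, minus strand) and Irgm1 (chr11:48871423-48871462, minus strand).
Igtp: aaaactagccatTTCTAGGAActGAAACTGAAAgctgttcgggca
Irgm2: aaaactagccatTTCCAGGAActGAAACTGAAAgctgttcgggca
Tgtp1: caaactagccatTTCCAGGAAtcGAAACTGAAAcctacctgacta
Tgtp2: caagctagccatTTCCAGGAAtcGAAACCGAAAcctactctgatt
Irgm1: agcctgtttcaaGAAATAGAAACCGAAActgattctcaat
In Igtp, Irgm2, Tgtp1 and Tgtp2 a GAS match came first and an ISRE core followed, starting 11 bases after the start of the GAS. In Irgm1 the capitals are 2 overlapping ISRE cores, with no GAS match in the window.

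GAS was held by 4 of the 6 member windows and by 8.30% of all 32851 windows. The ISRE core was held by 5 of 6 and by 3.44% of all windows, and the kappaB form by 0 of 6 and 1.47%. GAS and the ISRE core at the 11-base spacing occurred in 5 of all 32851 windows (0.0152%). These were the 4 members above and Gm12185, another IRG gene of chromosome 11, whose annotation overlaps that of Tgtp1. The spacing was chosen after the matches were seen, and the genes are related copies, so the 5 windows are not independent occurrences. A match is a run of letters and was not measured here as a bound site. The listed window of Ifi47 held none of the 3 motifs, but 4 of its 5 GENCODE transcripts start over 10 kb after that start, outside the window.

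The 7 members together had 19054 reads in the UNE-C1 library, against 1275 reads in the control library. That is 1343 CPM in the UNE-C1 library and 76.2 CPM in the control library, a ratio of 17.6 (interval 16.7 to 18.7). IRG reads made up 0.119% of the UNE-C1 library and 0.00858% of the control library. Each of the 7 members was higher in the UNE-C1 library. All 7 were at least 2-fold higher on the log2(CPM + 1) scale, where 9.31% of the compared genes were, and 5 were at least 8-fold higher, where 1.17% were. Iigp1, Tgtp1 and Tgtp2 passed the 50-read floor through the UNE-C1 library alone, so that they had to differ to be compared. The other 4 passed in both libraries, where 8.32% of the 9355 genes past the floor in both were at least 2-fold higher.

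**Figure D1:**
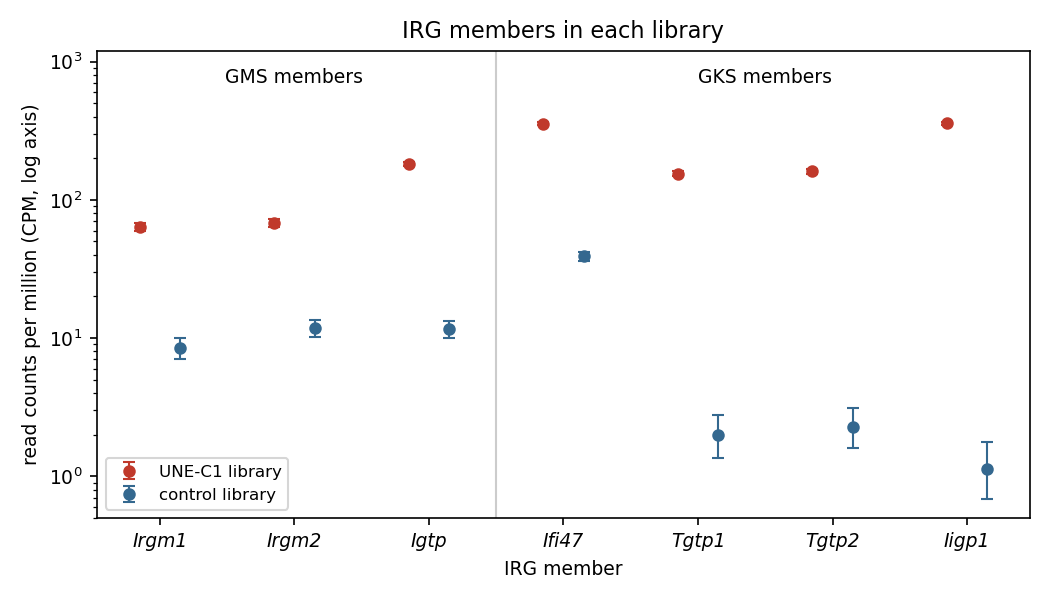
Level of each IRG member in CPM (log axis) in the UNE-C1 library (red, left of each pair) and the control library (blue, right), with exact Poisson 95% intervals of the read count. UNE-C1 levels lie between 64.0 and 359 CPM, and control levels between 1.14 and 39.0 CPM, with the widest spread among the GKS members.

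Among the GMS members, Igtp had the largest ratio. Igtp, a regulator found on the endoplasmic reticulum and lipid droplets, had 2575 reads (182 CPM) in the UNE-C1 library and 194 reads (11.6 CPM) in the control library. Its CPM ratio was 15.7 (interval 13.5 to 18.2). Irgm1, whose loss leaves mice open to mycobacteria and Listeria, had 908 reads (64.0 CPM) in the UNE-C1 library and 141 reads (8.43 CPM) in the control library, a ratio of 7.60 (6.36 to 9.14). Irgm2, a regulator found mainly at the Golgi, had 969 reads (68.3 CPM) in the UNE-C1 library and 197 reads (11.8 CPM) in the control library, a ratio of 5.80 (4.97 to 6.80).

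Ratios of members within a library do not depend on how the libraries are scaled. Igtp had 2.66 reads for each Irgm2 read in the UNE-C1 library and 0.985 in the control library, so that the ratio was 2.70 times as high (interval 2.17 to 3.35). This separates a pair that lies side by side on chromosome 11, at 58199556 to 58207591 for Igtp and 58199618 to 58222782 for Irgm2, both on the plus strand. Igtp against Irgm1 was 2.06 times as high (1.63 to 2.61). Irgm1 against Irgm2 was 1.31 times as high, with an interval (1.03 to 1.67) that comes close to 1. The annotated Irgm2 gene spans Igtp because 1 of its 3 transcripts starts inside Igtp. None of the 50-base windows in the last 500 bases of either gene's longest coding transcript occurs in a transcript of another gene.

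The GKS members spread widely, with ratios from 9.10 for Ifi47 to 316 for Iigp1. Iigp1 had 5094 reads (359 CPM) in the UNE-C1 library and 19 reads (1.14 CPM) in the control library. Its ratio of 316 has a wide interval of 202 to 526, set by the 19 control reads, and its log2 fold change of 7.40 was the second highest of all compared genes. Iigp1 encodes the member best known for coating the Toxoplasma vacuole, and its gene is on the plus strand of chromosome 18, at 60376027 to 60392634.

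Tgtp1 had 2192 reads (155 CPM) in the UNE-C1 library and 33 reads (1.97 CPM) in the control library. Tgtp2 had 2277 reads (161 CPM) in the UNE-C1 library and 38 reads (2.27 CPM) in the control library. These genes cannot be measured apart. Their longest coding transcripts are 99.8% identical, and all 451 windows of 50 bases in the last 500 bases of Tgtp1 occur in Tgtp2. There were 0.963 Tgtp1 reads for each Tgtp2 read in the UNE-C1 library and 0.868 in the control library, a difference within counting error (1.11 times, 0.674 to 1.83). Summed, they had 4469 reads in the UNE-C1 library and 71 in the control library, a CPM ratio of 74.3 (interval 58.7 to 95.2).

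Ifi47 was the most abundant member in the control library and had the smallest ratio of the GKS members. It had 5039 reads (355 CPM) in the UNE-C1 library and 653 reads (39.0 CPM) in the control library, a ratio of 9.10 (interval 8.39 to 9.89). With total counts its log2 fold change falls under the 8-fold line, and 4 members in place of 5 pass it. Ifi47, a GTPase that contributes to the resistance of mice to Toxoplasma, is encoded on the plus strand of chromosome 11, at 49076587 to 49096974. The olfactory receptor gene Olfr56 is annotated over its whole length on the same strand, and had 199 reads in the UNE-C1 library and 9 in the control library. One Olfr56 transcript starts 5 bases from an Ifi47 transcript, so that reads of these genes may not be fully separate. Olfr56 is also annotated over Tgtp1 and Tgtp2 on the opposite strand, and Gm12185 over 6900 bases of Tgtp1 on the same strand.

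The order of the levels differed between the libraries. In the UNE-C1 library Iigp1 (359 CPM) and Ifi47 (355 CPM) led and lay within each other's counting intervals. The Tgtp copies, which cannot be measured apart, had 315 CPM when summed (161 and 155 CPM as listed), and Igtp had 182 CPM. Irgm2 (68.3 CPM) and Irgm1 (64.0 CPM) came last, also with overlapping intervals. In the control library Ifi47 led alone at 39.0 CPM. Irgm2 and Igtp, at 11.8 and 11.6 CPM, could not be ordered, and Irgm1 followed at 8.43 CPM. The Tgtp copies (4.24 CPM summed, 2.27 and 1.97 CPM as listed) and Iigp1 (1.14 CPM) were lowest. Taken singly, the interval of each Tgtp copy overlapped that of Iigp1. The 3 members with the lowest control levels thus had the 3 highest ratios, a relation in which the control level enters both sides.

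The make-up of the family's reads was more even in the UNE-C1 library than in the control library. Ifi47 gave 26.4% of the members' reads in the UNE-C1 library (interval 25.8 to 27.1) and 51.2% in the control library (48.4 to 54.0). Iigp1 gave 26.7% in the UNE-C1 library (26.1 to 27.4) and 1.49% in the control library (0.900 to 2.32). The Tgtp copies together gave 23.5% in the UNE-C1 library and 5.57% in the control library. The GMS members gave 23.4% in the UNE-C1 library (22.8 to 24.0) and 41.7% in the control library (39.0 to 44.5). There were 3.28 GKS reads for each GMS read in the UNE-C1 library and 1.40 in the control library, 2.35 times as many (interval 2.09 to 2.64). Without Iigp1 the factor was 1.57 (1.39 to 1.77). For Ifi47 alone it was 0.922 (0.815 to 1.04), so that the shift lay in Iigp1 and the Tgtp copies.

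**Figure D2:**
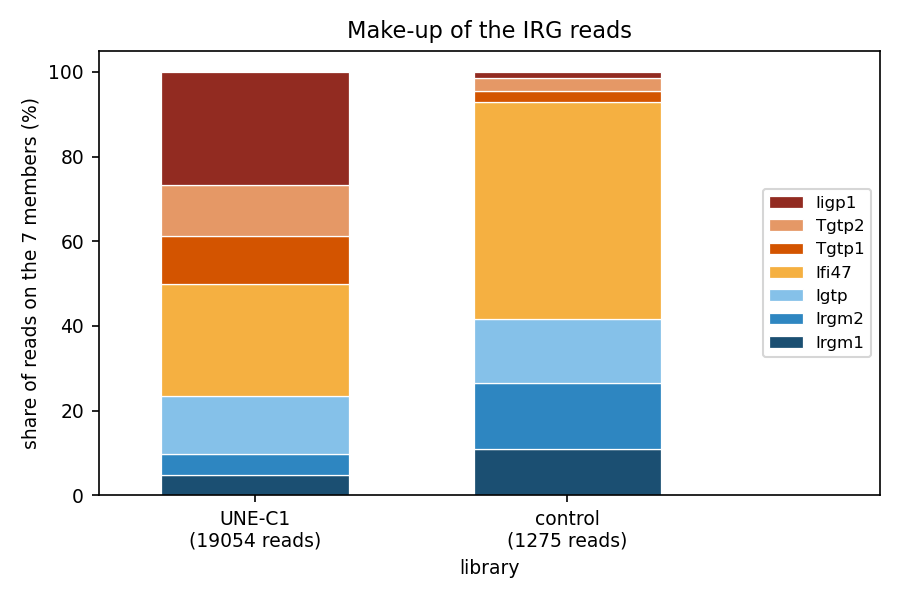
Share of the summed reads of the 7 IRG members that each gave, in percent, in the UNE-C1 library (left bar, 19054 reads) and the control library (right bar, 1275 reads). GMS members are in blue and GKS members in orange and red; Ifi47 takes 26.4% of the UNE-C1 bar and 51.2% of the control bar.

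The family is larger than the 7 members. Of 20 older and newer symbols written for further IRG genes, 10 are in the files and 9 passed the floor. Of these 9, the UNE-C1 library had 7 higher by at least 2-fold and 2 by at least 8-fold. Of all compared genes, 9.31% and 1.17% were higher by as much. The median log2 fold change of the 9 was 2.01. Of the 9, Gm12185, Gm4841, F830016B08Rik, 9930111J21Rik1 and 9930111J21Rik2 passed the floor through the UNE-C1 library alone. Of the 4 that passed in both libraries, 3 were higher by at least 2-fold, where 8.32% of all genes past the floor in both were. Gm4951, a neighbour of Iigp1 on chromosome 18, had 2515 reads (177 CPM) in the UNE-C1 library and 137 reads (8.19 CPM) in the control library, a ratio of 21.7 (interval 18.2 to 25.9). Its level in the UNE-C1 library was thus close to that of Igtp. Gm4841, also there, had 122 reads in the UNE-C1 library and 1 in the control library, a ratio of 144 whose interval runs from 25.4 to 5731. F830016B08Rik, the other IRG gene of that group, had 172 reads in the UNE-C1 library and 13 in the control library. Iigp1 and Gm4951 lie in the same group but differed unequally between the libraries: there were 2.03 Iigp1 reads for each Gm4951 read in the UNE-C1 library and 0.139 in the control library.

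On chromosome 11, Gm12250, which encodes Irgb10, a GKS protein known to act on the envelope of bacteria, had 1059 reads in the UNE-C1 library and 164 in the control library, a ratio of 7.62 (6.46 to 9.04). Gm5431 had 709 reads in the UNE-C1 library and 257 in the control library, a ratio of 3.25 (2.82 to 3.77). Of the windows of 50 bases at the end of Gm5431, 28.6% occur in Gm12185, 9930111J21Rik1 or 9930111J21Rik2. Reads of Gm5431 may thus not be fully separate from theirs. Gm12185 had 94 reads in the UNE-C1 library and 15 in the control library. The tandem genes 9930111J21Rik1 (57 reads in the UNE-C1 library and 34 in the control library) and 9930111J21Rik2 (96 reads in the UNE-C1 library and 40 in the control library) had few reads, with log2 fold changes of 0.73 and 1.20. Of the windows of 50 bases at the end of 9930111J21Rik1, 67.2% occur in 9930111J21Rik2, so that their reads may be split.

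Neither IRG gene of chromosome 7 was 2-fold higher. Irgq, a quasi-GTPase of the family, had 238 reads (16.8 CPM) in the UNE-C1 library and 218 reads (13.0 CPM) in the control library, a ratio of 1.29 (1.07 to 1.55). Irgc1, known as a testis gene, had 0 reads in the UNE-C1 library and 4 in the control library. By its exact Poisson interval, a count of 0 allows up to 0.260 CPM in the UNE-C1 library. The 4 control reads stand for 0.239 CPM, so that no difference was detectable for Irgc1 (interval of the ratio 0 to 1.79).

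**Figure D3:**
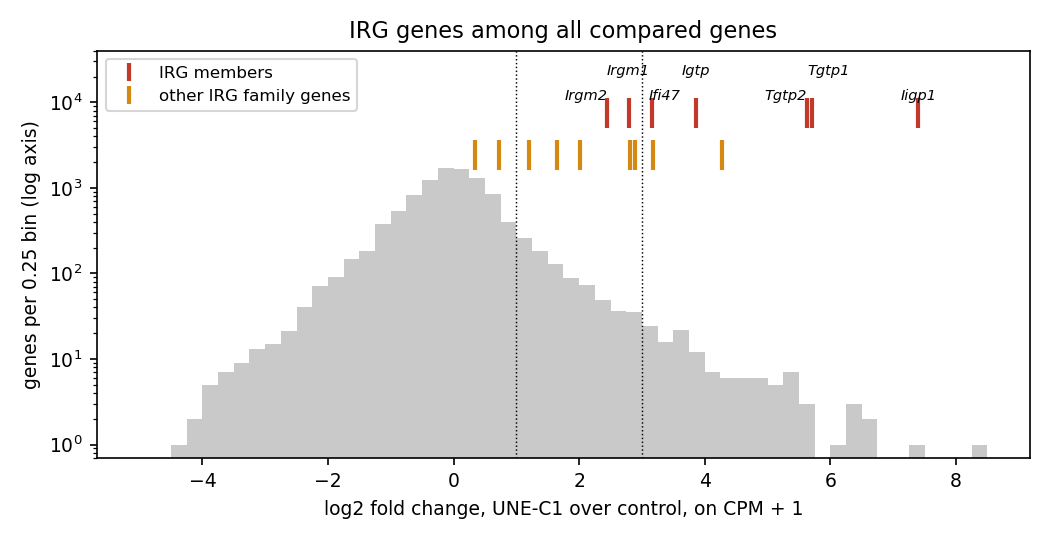
Number of compared genes (log axis) by log2 fold change, UNE-C1 over control, for all 10469 genes, with the 7 IRG members (red ticks, named) and 9 other IRG genes (orange ticks) above; dotted lines mark 2-fold and 8-fold higher. The members run from 2.44 for Irgm2 to 7.40 for Iigp1, and 206 compared genes lie at or above Irgm2.

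Genes near the members were taken as a measure of the chromosomal surroundings. Of 21 protein-coding genes of no IRG list that start within 200 kb of a member, 15 passed the floor, Olfr56 through the UNE-C1 library alone and Gemin5 through the control library alone. A change of at least 2-fold was seen upward in 4 and downward in 1, with a median log2 fold change of 0.28, where 9.31% and 9.42% of all compared genes were higher and lower. With total counts 2 in place of 4 were higher. The higher ones were Olfr56, which overlaps Ifi47, and Psme2b, Smim3 and Zfp62. Psme2b, a copy of the proteasome activator gene Psme2, lies on the same strand as Gm12185 and overlaps it by 837 bases. Psme2b had 9832 reads in the UNE-C1 library and 4642 in the control library (2.50-fold, 2.41 to 2.59). Whether these reads are separate from those of Psme2 was not examined. Smim3, beside Iigp1, was 2.57-fold higher (2.40 to 2.75). The lower one was Gemin5, a component of the SMN complex near Igtp, with 42 reads in the UNE-C1 library and 122 in the control library. Mrpl22, which starts 27.9 kb from Igtp, had 204 reads in the UNE-C1 library and 217 in the control library, a ratio of 1.11 (0.912 to 1.35). Trim41, 54.3 kb from Irgm1, had a ratio of 1.22 (1.08 to 1.38).

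**Figure D4:**
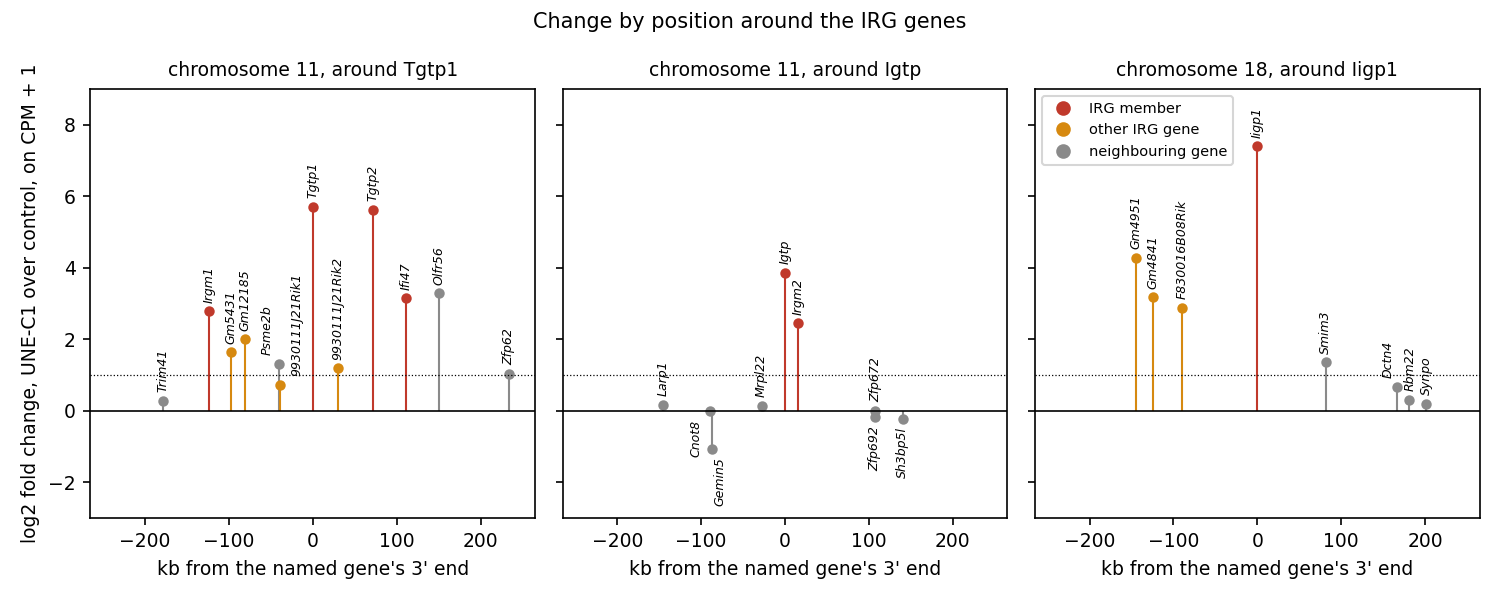
Log2 fold change, UNE-C1 over control, of compared protein-coding genes by the distance of their 3' end from that of Tgtp1, Igtp or Iigp1 in kb, for IRG members (red), other IRG genes (orange) and neighbours (grey); the dotted line marks 2-fold higher. Beside Igtp (3.86) and Irgm2 (2.44), the neighbours stand between -1.07 for Gemin5 and 0.17 for Larp1.

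The interferon pathway that lies upstream of IRG transcription was described from its ligands to its inhibitors. The ligands listed, Ifng and Ifnb1, had almost no reads, and other interferon genes were not examined. Ifng had 2 reads in the UNE-C1 library and 0 in the control library, and Ifnb1 had 1 read in the UNE-C1 library and 0 in the control library. By the exact Poisson interval, 0 reads allow up to 0.220 CPM in the control library. The cells were sampled once, at 24 h, and transcripts of an earlier time were not measured. Of the receptor chains, Ifnar2 of the type I receptor was at 308 CPM in the UNE-C1 library and 131 CPM in the control library (2.35-fold higher, 2.24 to 2.48), and Ifnar1 at 90.2 CPM in the UNE-C1 library and 89.3 CPM in the control library. Ifngr1, the ligand-binding chain of the interferon gamma receptor, was at 62.3 CPM in the UNE-C1 library and 103 CPM in the control library, a ratio of 0.603 (0.556 to 0.654). Its partner Ifngr2 had a ratio of 1.48 (1.37 to 1.59).

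Of the kinases, Jak2 had a ratio of 2.51 (2.39 to 2.65), Jak1 of 1.49 (1.44 to 1.54) and Tyk2 of 1.49 (1.37 to 1.62). The ratios of the transcription factors given here ran from 1.46 to 7.08. Stat2 was at 327 CPM in the UNE-C1 library and 46.2 CPM in the control library, a ratio of 7.08 (6.56 to 7.65). Irf1, which acts at ISRE elements, had a ratio of 2.70 (2.57 to 2.83) and Irf8 of 2.50 (2.43 to 2.57). Irf9, a partner of STAT2, had a ratio of 1.66 (1.56 to 1.77), and Irf2 of 1.46 (1.39 to 1.54). The feedback inhibitors were the highest of the pathway by fold: Socs1 had 1812 reads in the UNE-C1 library and 103 in the control library (20.8-fold, 17.0 to 25.6), and Usp18 and Socs3 were 12.2-fold (11.1 to 13.4) and 9.50-fold (8.51 to 10.6) higher. Over the list of 18 genes, 16 passed the floor, 9 were higher by at least 2-fold and 0 lower by as much. The median log2 fold change of the 16 was 1.27. Of all compared genes, 9.31% were higher and 9.42% lower by at least 2-fold. With total counts, 6 in place of 9 were higher.

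Genes whose products place IRG GTPases on vacuoles differed less between the libraries. These include the ubiquitin-like ATG conjugation system, whose loss is known to leave GKS proteins active in the wrong place, and the ubiquitin ligases and adaptor that join them there. Of 16 such genes, all past the floor, 3 were higher by at least 2-fold and 0 lower by as much. Their median log2 fold change was 0.30. Of all compared genes, 9.31% were higher and 9.42% lower by at least 2-fold. With total counts, 2 in place of 3 of the 16 were higher. The 3 higher after TMM scaling were not of the conjugation system. Sqstm1, which encodes the ubiquitin-binding adaptor p62, was at 1545 CPM in the UNE-C1 library and 402 CPM in the control library (3.84-fold, 3.74 to 3.95). The ubiquitin ligases Trim21 and Traf6 were 4.21-fold (3.40 to 5.26) and 2.54-fold (2.19 to 2.95) higher. Atg5, a part of the conjugating complex, had a ratio of 1.33 (1.24 to 1.43). Atg7, the enzyme that starts the conjugation, was at 49.0 CPM in the UNE-C1 library and 88.3 CPM in the control library, a ratio of 0.555 (0.506 to 0.607).

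Other interferon-inducible GTPases were also higher. Of 14 guanylate-binding proteins, Mx proteins and Gvin1, 13 passed the floor. All 13 were higher by at least 2-fold and 8 by at least 8-fold, where 9.31% and 1.17% of all compared genes were. The median log2 fold change of the 13 was 3.51. Gbp2b, Gbp9 and Gbp10 passed through the UNE-C1 library alone. All 10 that passed in both libraries were higher by at least 2-fold, where 8.32% of all genes past the floor in both were. By log2 fold change the largest were Gbp4 (1777 reads in the UNE-C1 library and 67 in the control library, 31.3-fold) and Gbp5 (4596 reads in the UNE-C1 library and 220 in the control library, 24.6-fold), of a family of GTPases that coat vacuoles and bacteria. Gbp6 followed at 4.24, and then Mx2 and Gbp10, both at 3.99. Outside these lists, the 5 genes whose log2 fold change was nearest to that of the summed IRG members (4.12, also on CPM + 1) were Mgarp, Slc7a2, Il18bp, Ero1l and Slc28a2, from 4.08 to 4.18. The plain CPM ratio, 17.6 for the summed members, was 17.8 for Il18bp and 17.4 for Ero1l. It was 64.5 for Mgarp, which had 6 reads in the control library, and 27.6 for Slc28a2, which had 30 there. Slc7a2 imports arginine and Il18bp encodes a secreted inhibitor of interleukin-18. Likeness here rests on 1 difference between 2 libraries.

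**Figure D5:**
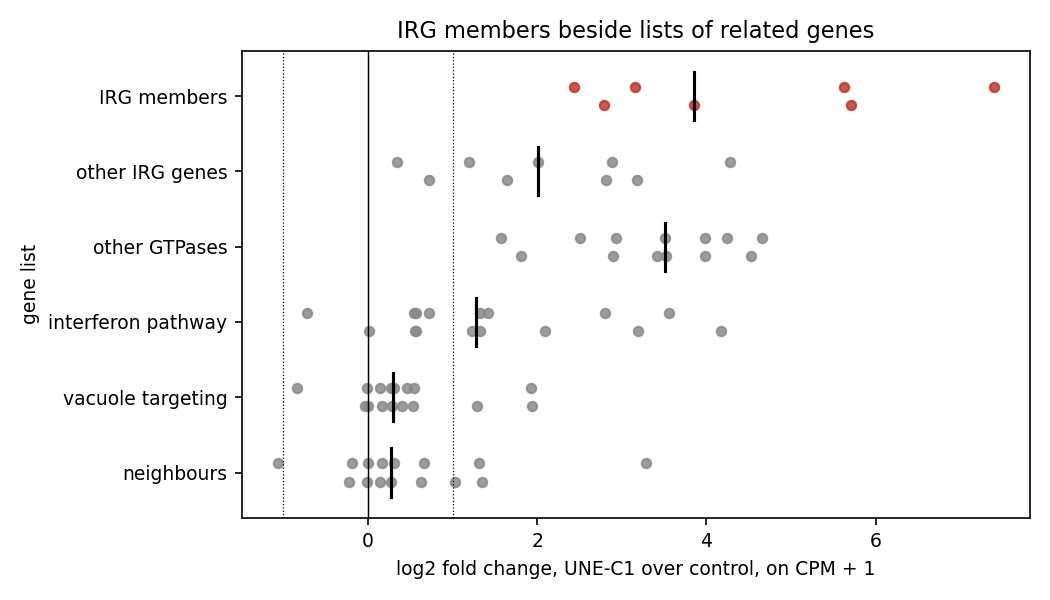
Log2 fold change, UNE-C1 over control, of each gene past the 50-read floor in 6 lists, with the list's median as a black bar; dotted lines mark 2-fold lower and higher. The medians are 3.86 for the IRG members, 2.01 for other IRG genes, 3.51 for other GTPases, 1.27 for the interferon pathway, 0.30 for vacuole targeting and 0.28 for the neighbours.

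Marker genes describe the cells in which these values were measured. Dendritic cell markers were present in both libraries: Cd74 and H2-Ab1, of MHC class II presentation, were at 2901 and 2594 CPM with UNE-C1, and at 2907 and 2732 CPM in the control library. Itgax, which encodes CD11c, was at 246 CPM in the UNE-C1 library and 759 CPM in the control library, and was the 1 marker of 7 past 2-fold, downward. Flt3 was also lower, with a ratio of 0.511 (0.373 to 0.694). Ccr7 was higher, at 439 CPM in the UNE-C1 library and 304 CPM in the control library, and Zbtb46 had a ratio of 1.18 (0.816 to 1.71). All 8 neutrophil markers were at least 2-fold lower in the UNE-C1 library, summing to 2951 CPM there and 7167 CPM in the control library. Of all compared genes, 9.42% were lower by as much. Of the 8, 6 passed the floor in both libraries. Elane (6 reads with UNE-C1 and 106 in the control) and Mpo (13 and 95) passed through the control library alone. Elane and Mpo thus had to be lower to be compared. Of the 6 macrophage markers, Adgre1 was at least 2-fold higher and Mrc1 at least 2-fold lower among the 5 past the floor. T and natural killer cell markers, which mark the usual sources of interferon gamma, summed to 26 reads in the UNE-C1 library and 76 in the control library over the 7 genes in the files. Most of these were reads of Cd8a (13 in the UNE-C1 library and 35 in the control library) and Cd4 (6 and 19). Cd3d had 1 read in each library, Cd3e 0 in each, and Cd3g 0 in the UNE-C1 library and 3 in the control library. Of the natural killer markers, Klrb1c had 0 reads in the UNE-C1 library and 18 in the control library, and Ncr1 had 6 in the UNE-C1 library and 0 in the control library. B cell markers summed to 5 reads in the UNE-C1 library and 34 in the control library. The part of these differences in the IRG values was not tested. In bulk RNA, more cells that express a gene and more RNA per cell cannot be told apart.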

How the data were processed

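The authors deposited 1 table of whole-number read counts per gene symbol for each of the 2 libraries. These counts were taken as not normalized, which whole-number values allow but do not prove. Bowtie2, edgeR and mm10 stand in the submitters' processing notes, without versions or roles. Per the labels' protocols, a QuantSeq kit was used on 500 ng of RNA. The annotation, strand setting and handling of multiply mapped reads are unknown from the sources used here. Symbols that occurred more than once (35, in 79 entries) were summed. CPM used TMM effective library sizes (edgeR 4.0.16, R 4.3.3; factors 0.888 for UNE-C1 and 1.13 for control). The comparison took genes that reached 50 reads in either library, with a pseudocount of 1 CPM. Intervals are 95% exact binomial for ratios and shares, exact conditional for ratios of ratios and exact Poisson for levels (scipy 1.17.1). PCR copies cannot be told from separate molecules. The procedure was tested on simulated counts with planted 8-fold changes and counting error only. Variation between cultures was not simulated, and no change was planted in genes with few expected reads.

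Gene positions are those of GENCODE M21 on GRCm38, which is mm10, and promoter windows from RefSeq (GRCm38.p6). The members and all lists were chosen with earlier results of these data known. The genes named are the members, further IRG genes with a read, the upstream interferon genes, neighbours that changed 2-fold or lie next to a member, up to 4 genes of the targeting and GTPase lists, the 5 genes of nearest change, Actb and cell type markers. Atg5, Larp1 and the order of examples were chosen after their values were seen. The nucleotide-binding loop was not examined, since protein sequence was not used here. Some results of the interferon pathway list are not reported here. Alternatives were total counts, DESeq2 1.42.0 size factors, Rn45s left out, pseudocounts of 0.1 and 5, no floor or 200 reads, Tgtp1 and Tgtp2 as 1 gene or left out, and a 500 kb distance.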

Additional observations from a re-analysis of the deposited data

How the results depend on the processing

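No paired analysis was possible because each group has 1 library, and for the same reason no replicate could be left out. The summed IRG members had a log2 ratio of 4.14, which was 3.80 with total counts, 3.84 without Tgtp1 and Tgtp2 and, in an alternative chosen after seeing the data, 3.71 without Iigp1. It stayed within its counting interval with DESeq2 size factors, without Rn45s and with the first entry of repeated symbols. All 7 members were at least 2-fold higher under each scaling, pseudocount and floor tried. The log2 fold changes of single members ran from 2.11 to 8.18 over these scalings and pseudocounts, and none turned below 0. With a floor of 200 reads, 3 other IRG genes in place of 7 were at least 2-fold higher, of 4 in place of 9 compared. Of the neighbours, 2 in place of 4 were at least 2-fold higher with total counts and 2 with a floor of 200 reads, under which 10 in place of 15 were compared. The other counts stayed within 1.5 times under the alternatives run. Depth limits Iigp1 and Tgtp ratios most, through their 19, 33 and 38 control reads.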
